A study of Mus musculus with 9 samples.

Results

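Gdf9, Bmp15, Fgf8, Oosp1, Oosp2, Oosp3, Omt2a and Omt2b encode growth factors and other proteins made in the oocyte, and their mRNA was measured in matured mouse oocytes. The 8 genes were chosen by name, as oocyte-secreted growth factors, oocyte-secreted proteins and oocyte maturation genes, and all 8 were found among the 22526 genes of the deposited table. All oocytes were from the outbred ICR strain and at metaphase II, the arrest in which a mature egg awaits fertilisation. They formed a group supplemented with nicotinamide mononucleotide (NMN, a precursor of the coenzyme NAD), an aged group and a young group, with 3 libraries each. Sequencing followed a single-cell protocol. The labels give no mouse age in months for any group, no age at all for the NMN mice, and neither the dose and route of NMN nor the number of oocytes or mice behind a library. The p-values therefore rest on the spread among these 9 libraries, part of which may be technical. Changes are written as log2 differences, with aged over young meaning aged minus young, and likewise for NMN over aged and NMN over young.

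GDF9 and BMP15 are growth factors of the TGF-beta superfamily that the oocyte secretes onto the granulosa and cumulus cells around it. They act through the type II receptor BMPR2, type I receptors and SMAD proteins, and in mice they drive follicle growth and the expansion of the cumulus. FGF8, a fibroblast growth factor, works together with BMP15 on the metabolism of mouse cumulus cells. OOSP1, OOSP2 and OOSP3 are small secreted proteins related to the placental protein PLAC1. OMT2A and OMT2B are small proteins first described for their mRNAs in maturing mouse oocytes. A metaphase II oocyte hardly transcribes, so its mRNA is largely the store laid down during growth. Libraries were primed with oligo(dT), so less mRNA and a shorter poly(A) tail cannot be told apart here. The values are scaled to library depth, so they are relative levels, and the amount of mRNA per oocyte was not measured.

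Omt2a and Omt2b are neighbours on chromosome 9, on opposite strands, and partly alike, which bears on every value given for them. Of the distinct stretches of 50 bases in their GENCODE M21 transcripts, 575 were common to both genes, which is 37.0% of those of Omt2a and 35.2% of those of Omt2b. None of the other 6 genes shared a stretch of 50 bases with any other annotated gene. The longest run common to an Omt2a and an Omt2b transcript was 376 bases, and between the longest coding sequences it was 117 bases. Those coding sequences, of 300 and 357 bases, were identical at 81.1% of 291 aligned positions. The stretch of 60 bases in which they were most alike, coding bases 184 to 243 of Omt2a and 241 to 300 of Omt2b, is shown first, and the one in which they were least alike, coding bases 66 to 125 and 123 to 182, is shown next, with the 25 differing bases in capitals.
Omt2a, most alike: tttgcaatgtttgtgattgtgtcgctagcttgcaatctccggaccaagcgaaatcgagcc
Omt2b, most alike: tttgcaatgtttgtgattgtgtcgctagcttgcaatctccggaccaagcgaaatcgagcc
Omt2a, least alike: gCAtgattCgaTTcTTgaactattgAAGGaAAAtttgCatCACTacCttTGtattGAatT
Omt2b, least alike: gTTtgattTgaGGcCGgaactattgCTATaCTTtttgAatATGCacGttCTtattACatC
A read from the first pair could come from either gene, and a read from the second pair could be placed. How the deposited values divided such reads between both genes is not given in the sources used here, so each Omt2 value is uncertain to that extent and their sum is firmer than either.

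The Oosp genes lay side by side on chromosome 19, in the order Oosp2, Oosp1, Oosp3, with no other gene of the table between them. Genes directly beside the Oosp and Omt2 clusters were near 0. Ms4a3 and Gif, which flank the Oosp genes, reached at most 0.0637 and 0.439 FPKM (read fragments per kilobase of transcript, scaled to library depth), and Gm10639 and Gsta2, which flank the Omt2 pair, reached at most 0.503 and 0.765 FPKM. Promoters of 5 of the 8 genes were matched in RefSeq (GRCm38.p6), those of Bmp15, Oosp1, Oosp2, Omt2a and Omt2b. The promoters of 4 are shown, chosen by how the genes varied across libraries. Oosp1, Omt2a and Omt2b moved together. Oosp2 moved with them too (Pearson's r of 0.838, 0.714 and 0.795, of which that with Omt2a did not pass adjustment), but its promoter is not shown. Bmp15 had negative correlations with Oosp1, Omt2a and Omt2b (r of -0.691, -0.703 and -0.514), and none of these passed adjustment. Each is the 250 bases before the annotated start, from chrX:6320725-6320974 (minus strand) for Bmp15, chr19:11691052-11691301 (minus strand) for Oosp1, chr9:78314049-78314298 (minus strand) for Omt2a and chr9:78327780-78328029 (plus strand) for Omt2b. Capitals mark the letters TAATTG (an element bound by the oocyte homeobox factor NOBOX), TGATTG (bound by LHX8) and TATAAA (the TATA box), each read on both strands.
Bmp15: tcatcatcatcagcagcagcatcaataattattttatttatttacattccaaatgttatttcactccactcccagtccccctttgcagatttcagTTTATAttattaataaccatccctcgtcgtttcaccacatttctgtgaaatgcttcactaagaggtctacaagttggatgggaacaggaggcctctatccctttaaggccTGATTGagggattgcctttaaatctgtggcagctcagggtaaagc
Oosp1: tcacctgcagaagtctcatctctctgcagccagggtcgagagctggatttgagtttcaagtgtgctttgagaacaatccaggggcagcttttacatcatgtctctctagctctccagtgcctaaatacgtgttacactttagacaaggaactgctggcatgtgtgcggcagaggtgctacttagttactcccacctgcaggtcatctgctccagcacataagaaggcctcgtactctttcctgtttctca
Omt2a: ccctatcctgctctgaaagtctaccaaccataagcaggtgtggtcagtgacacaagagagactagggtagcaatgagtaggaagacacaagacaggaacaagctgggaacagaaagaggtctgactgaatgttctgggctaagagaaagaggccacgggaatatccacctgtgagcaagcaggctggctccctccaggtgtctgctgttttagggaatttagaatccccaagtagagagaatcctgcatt
Omt2b: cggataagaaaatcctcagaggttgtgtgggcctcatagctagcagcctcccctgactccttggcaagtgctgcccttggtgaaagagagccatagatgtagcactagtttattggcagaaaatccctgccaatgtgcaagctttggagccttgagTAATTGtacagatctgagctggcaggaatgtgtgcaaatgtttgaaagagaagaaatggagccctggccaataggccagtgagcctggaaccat
TGATTG was found once in the Bmp15 promoter, 45 bases before the start, and in 12.7% of 32851 promoters of the same length. TATAAA was found once there too, on the other strand 155 bases before the start, and in 12.4% of all promoters. TAATTG was found once, in the Omt2b promoter, 94 bases before the start, and in 7.17% of all promoters. The Oosp1, Oosp2 and Omt2a windows held none of these 3 sequences. The E-box letters CANNTG, which oocyte factors such as FIGLA bind, overlapped none of them; the Oosp1 window had 5 matches, Omt2a 3, Omt2b 2 and Bmp15 and Oosp2 1 each, and 66.2% of all promoters had at least 1. So Oosp1, Oosp2, Omt2a and Omt2b, whose levels were positively correlated, had none of the 3 capitalised sequences in common in these windows. Each had an E-box match, as did 66.2% of all promoters. Oosp3, Gdf9 and Fgf8 had no matched promoter and could not be compared.

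By mean level per transcript length over the 9 libraries, Oosp1 was the highest of the 8 genes, at 3397 FPKM, and Gdf9 was next, at 2769 FPKM. They ranked 8 and 11 among the 22526 genes. Their order was not fixed, since Oosp1 exceeded Gdf9 in 4 of 9 libraries only. Bmp15 followed at 828 FPKM, Oosp3 at 297, Omt2b at 144, Omt2a at 38.4, Oosp2 at 18.7 and Fgf8 at 9.76 FPKM. Each of these stood above the next in all 9 libraries, except that Omt2a exceeded Oosp2 in 8. The 8 genes together made up 2.02 to 2.69% of the FPKM of a library. All were far above the level that 3 reads would give a transcript of 2 kb, 0.0779 to 0.0922 FPKM.

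The libraries held 16.26 to 19.25 M reads, as estimated from the steps between low values, and all 17 oocyte markers outside the 8 genes were above 0 in each, with sums of 22167 to 34552 FPKM. Aged replicate 2 stood apart. Of 22 listed cumulus and granulosa cell markers, 18 were in the deposited table. In aged replicate 2, 17 of these were above 0, with a sum of 28.4 FPKM. The other 8 libraries had 6 to 10 markers above 0 and sums of 6.32 to 10.8 FPKM. Ptx3, Inha, Fst, Tnfaip6, Hsd17b1 and Foxl2 were at 0 in those 8. The listed markers did not all go this way. Cyp19a1 was lowest in aged replicate 2, at 3.03 FPKM beside 3.05 to 6.21 FPKM in the other libraries, and Lhcgr was at 0 there. Blood and stromal markers summed to 7.91 to 12.3 FPKM in the 9 libraries. Whether cumulus or granulosa cells were present, and what part they had in the results below, was not tested. Each change of the 8 genes that turned sign or moved by over 1.5 times without aged replicate 2 is given with its value without it.

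Gdf9 mRNA was close to level in the 3 groups. NMN replicates 1 to 3 had 2421, 2948 and 3143 FPKM, aged replicates 2734, 2127 and 3354 FPKM and young replicates 2659, 2779.8 and 2754 FPKM. The NMN and aged ranges enclosed the young one, and aged replicates 2 and 3 were the lowest and the highest of all 9. The means were 2837 ± 374 in NMN, 2738 ± 614 in aged and 2731 ± 63.4 FPKM in young oocytes (SD, n = 3 each). On the log2(FPKM + 1) scale, limma gave a change of -0.09 for aged over young (95% confidence interval -0.59 to 0.42), 0.07 for NMN over aged (-0.43 to 0.58) and -0.01 for NMN over young (-0.52 to 0.49), with adjusted p from 0.874 to 0.992. The aged over young value turned to 0.16 without aged replicate 2, and the NMN over aged value to -0.17.

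Bmp15 varied more. NMN replicates had 517, 877 and 777 FPKM, aged replicates 1000.2, 582 and 1322 FPKM and young replicates 561, 934 and 879 FPKM. Each group held 1 library between 517 and 582 FPKM, which was NMN replicate 1, aged replicate 2 or young replicate 1, and 2 libraries of at least 777 FPKM, so the groups overlapped throughout. The means were 724 ± 186 in NMN, 968 ± 371 in aged and 792 ± 201 FPKM in young oocytes (SD, n = 3 each). The changes were 0.18 for aged over young (-0.64 to 1.004), -0.37 for NMN over aged (-1.19 to 0.45) and -0.19 for NMN over young (-1.01 to 0.64), with limma adjusted p from 0.748 to 0.894. Without aged replicate 3, the library with the most Bmp15, the aged over young value turned to -0.11, and without young replicate 1 to -0.07. It was 0.58 without aged replicate 2. The NMN over aged value was -0.77 without aged replicate 2 (limma adjusted p = 0.269), -0.12 without NMN replicate 1, -0.56 without NMN replicate 2, -0.08 without aged replicate 3 and -0.67 with library quality weights (adjusted p = 0.178).

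Gdf9 exceeded Bmp15 in all 9 libraries. The Gdf9 to Bmp15 ratio was 4.69, 3.36 and 4.04 in NMN libraries, 2.73, 3.66 and 2.54 in aged libraries and 4.74, 2.97 and 3.13 in young libraries. The aged group held the 2 lowest ratios, but its replicate 2 lay within the NMN and young ranges. A two-sided exact permutation test of the log2 ratio gave p = 0.4 for aged over young, 0.2 for NMN over aged and 0.6 for NMN over young, and all 3 were 0.6 after adjustment over the 3 pairs. With 3 libraries against 3 this test cannot give a p below 0.1.

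Fgf8 was the least abundant of the 8 genes. NMN replicates had 8.68, 9.12 and 9.72 FPKM, aged replicates 6.54, 16.2 and 9.65 FPKM and young replicates 11.6, 9.33 and 6.96 FPKM. The NMN values lay inside the ranges of both other groups, and aged replicate 2 was the highest of all. The limma changes were between -0.12 and 0.08, with adjusted p from 0.896 to 0.966. Without aged replicate 2 the aged over young value turned to -0.17 and the NMN over aged value to 0.12.

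Oosp1 had a mean of 3523 ± 1165 FPKM in NMN, 3773 ± 1056 in aged and 2895 ± 774 FPKM in young oocytes (SD, n = 3 each). NMN replicates had 4865, 2774 and 2929 FPKM, aged replicates 3597, 4906 and 2817 FPKM and young replicates 3732, 2748 and 2206 FPKM. The groups overlapped, and NMN replicate 1 and aged replicate 2 were alike in being the highest. The changes were 0.31 for aged over young (-0.27 to 0.90), -0.10 for NMN over aged (-0.69 to 0.48) and 0.21 for NMN over young (-0.37 to 0.79), with limma adjusted p from 0.564 to 0.925. Without aged replicate 2 the aged over young value was 0.18 and the NMN over aged value turned to 0.03.

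Oosp2 was about as high in NMN as in aged libraries and lowest on average in young ones, but no difference passed the test over all genes. NMN replicates had 28.1, 21.0 and 14.0 FPKM, aged replicates 24.9, 30.7 and 15.3 FPKM and young replicates 15.4, 10.7 and 7.97 FPKM. As deposited, aged replicate 3 lay just below young replicate 1; once values were scaled between libraries, the lowest aged library lay above the highest young one, and of the 8 genes only Oosp2 had groups that did not overlap, in this comparison alone. Among all 9168 tested genes, 24.1% did not overlap between aged and young libraries, 15.9% between NMN and aged and 16.4% between NMN and young libraries, in either direction. The means were 21.0 ± 7.03 in NMN, 23.7 ± 7.78 in aged and 11.4 ± 3.78 FPKM in young oocytes (SD, n = 3 each). The change was 0.93 ± 0.31 (SE) for aged over young (0.23 to 1.62, limma adjusted p = 0.158), -0.15 for NMN over aged (-0.85 to 0.54, adjusted p = 0.896; -0.02 without aged replicate 2) and 0.77 ± 0.31 for NMN over young (0.08 to 1.47, adjusted p = 0.556).

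Oosp3 had 369, 214 and 256 FPKM in NMN replicates, 331, 500.4 and 254 FPKM in aged replicates and 315, 261 and 176 FPKM in young replicates. All 3 groups overlapped, with aged replicate 2 the highest and young replicate 3 the lowest. The limma change was 0.45 ± 0.28 (SE) for aged over young (-0.17 to 1.06, adjusted p = 0.426; 0.26 without aged replicate 2), -0.34 for NMN over aged (-0.96 to 0.27, adjusted p = 0.680; -0.15 without it) and 0.10 for NMN over young (-0.51 to 0.72, adjusted p = 0.923). Plac1, the related gene on the X chromosome, had 17.3, 7.10 and 5.68 FPKM in NMN, 6.95, 8.54 and 4.86 FPKM in aged and 0.943 to 4.13 FPKM in young libraries. As deposited, each NMN and aged library was above every young one, with limma adjusted p = 0.268 for aged over young and 0.418 for NMN over young.

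Omt2b had the widest range, 10.8-fold between young replicate 3 and aged replicate 2. NMN replicates had 189.6, 74.9 and 79.6 FPKM, aged replicates 139, 429 and 130.4 FPKM and young replicates 139.7, 77.5 and 39.6 FPKM. Aged replicate 2 stood alone, and aged replicates 1 and 3 lay just below young replicate 1, so the groups overlapped. The change was 1.32 ± 0.52 (SE) for aged over young (0.16 to 2.48, limma adjusted p = 0.218; 0.83 without aged replicate 2), -0.91 ± 0.52 for NMN over aged (-2.07 to 0.25, adjusted p = 0.540; -0.43 without that library) and 0.40 ± 0.52 for NMN over young (-0.76 to 1.56, adjusted p = 0.841).

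Omt2a had 83.8, 24.9 and 25.8 FPKM in NMN replicates, 24.3, 76.4 and 36.3 FPKM in aged replicates and 41.6, 15.4 and 17.1 FPKM in young replicates. Each group had 1 library well above its other 2, again NMN replicate 1, aged replicate 2 and young replicate 1. The change was 0.78 ± 0.51 (SE) for aged over young (-0.36 to 1.92), -0.10 for NMN over aged (-1.24 to 1.04) and 0.69 for NMN over young (-0.45 to 1.83), with limma adjusted p from 0.457 to 0.966. Without aged replicate 2, aged over young was 0.41 and NMN over aged turned to 0.28. The NMN over young value was 0.15 without NMN replicate 1 and 1.10 without young replicate 1. Summed over both Omt2 genes, NMN libraries had 273, 99.8 and 105 FPKM, aged libraries 163, 505 and 167 FPKM and young libraries 181, 92.9 and 56.6 FPKM. The sum was thus highest in the same 3 libraries.

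Omt2b exceeded Omt2a in all 9 libraries. The Omt2b to Omt2a ratio was 2.26, 3.01 and 3.09 in NMN libraries, 5.73, 5.61 and 3.59 in aged libraries and 3.36, 5.04 and 2.32 in young libraries. All NMN ratios lay below all aged ratios, and the two-sided exact permutation p for NMN over aged was 0.1, the smallest 3 against 3 libraries can give, or 0.3 adjusted over the 3 pairs. It was 0.2 for aged over young and 0.4 for NMN over young (adjusted 0.3 and 0.4). Since both genes share sequence, the ratio rests on how reads were divided between them.

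**Figure D1:**
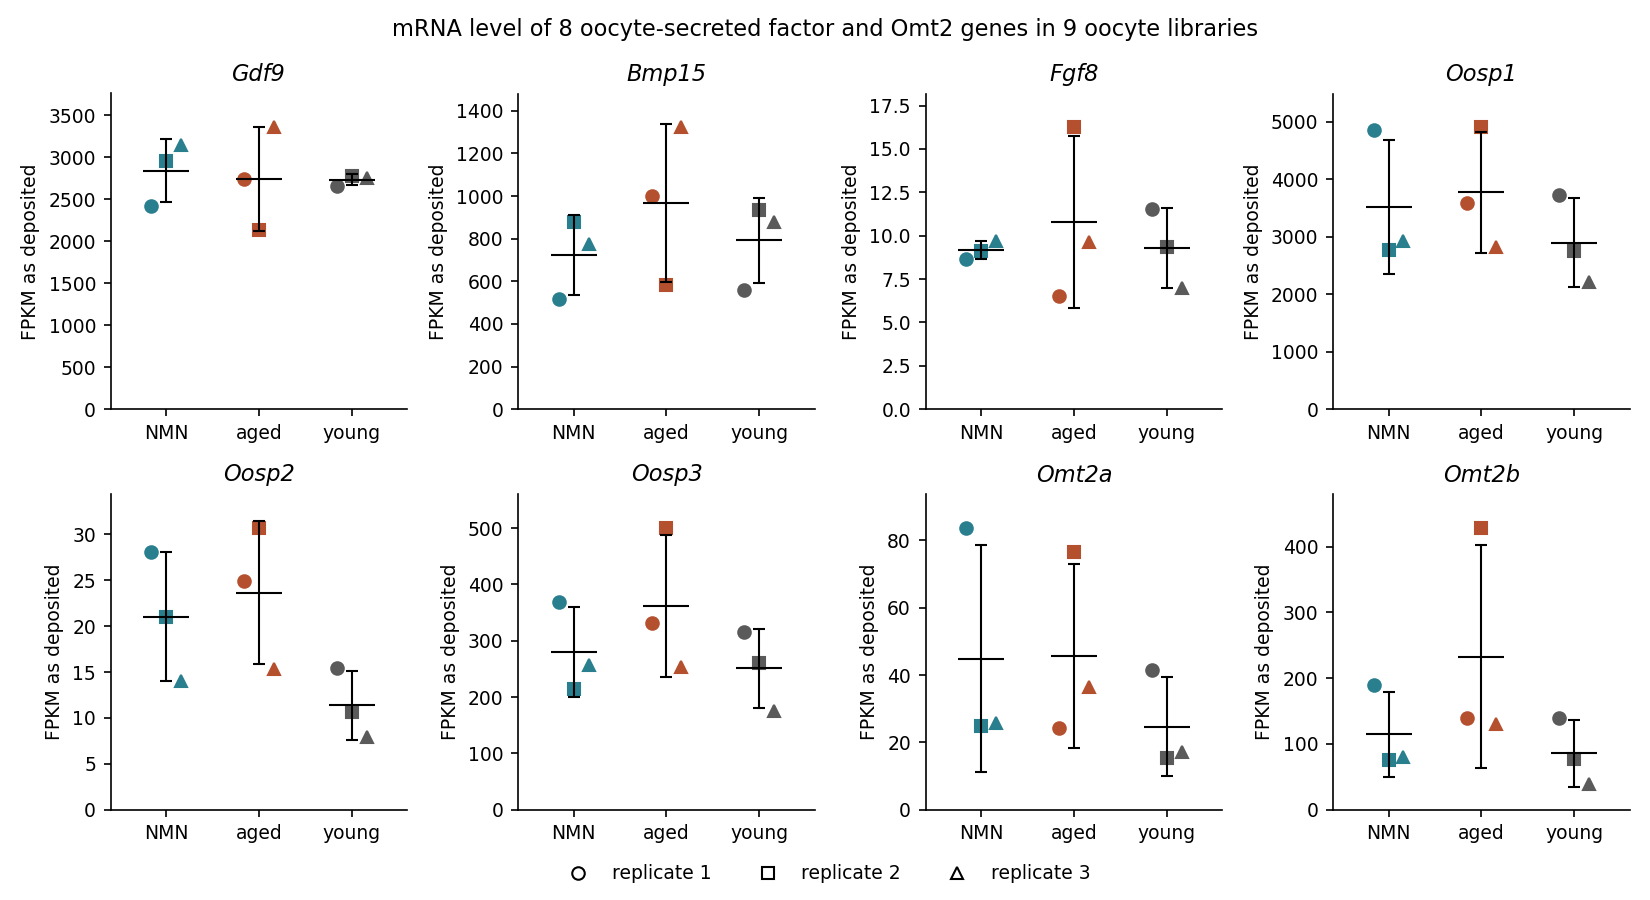
Level of each of the 8 genes in FPKM as deposited (y axis, from 0) in NMN, aged and young libraries, with 1 point per library, a marker shape per replicate number, and the group mean ± SD in black (n = 3). For Bmp15 the lowest point of each group lies between 517 and 582 FPKM, and the same 3 libraries are the highest of their group for Oosp1, Oosp2, Oosp3, Omt2a and Omt2b.

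Set against all tested genes, none of the 8 was called in any comparison at a limma adjusted p under 0.05. The shares called among the 9168 tested genes were 2.18% for aged over young (200 genes), 0.218% for NMN over aged (20) and 0.0764% for NMN over young (7, or 0 with the replicate number as a block), so for a set of 8 genes 0 is near the background. At an unadjusted p under 0.05 there were 2 of 8 in aged over young (Oosp2 and Omt2b, background 18.3%), 0 of 8 in NMN over aged (background 11.3%) and 1 of 8 in NMN over young (Oosp2, background 8.12%). In aged over young, 7 of 8 changes were above 0, with a median of 0.38 beside a median of -0.05 over all tested genes, of which 44.8% were above 0. It was 7 of 8 with a median of 0.33 without aged replicate 2, and 6 of 8 with a median of 0.27 with the length trend removed. In NMN over aged, 1 of 8 was above 0 and the median was -0.14, beside 0.02 and 53.2% over all tested genes. Without aged replicate 2, 3 of 8 were above 0 with a median of -0.09, and with each library's trend over transcript length removed, 3 of 8 with a median of -0.01. Both comparisons use the same aged libraries, which links them. In NMN over young, 5 of 8 were above 0, with a median of 0.16 beside 0.00 (-0.000857) and 49.8% over all tested genes.

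**Figure D2:**
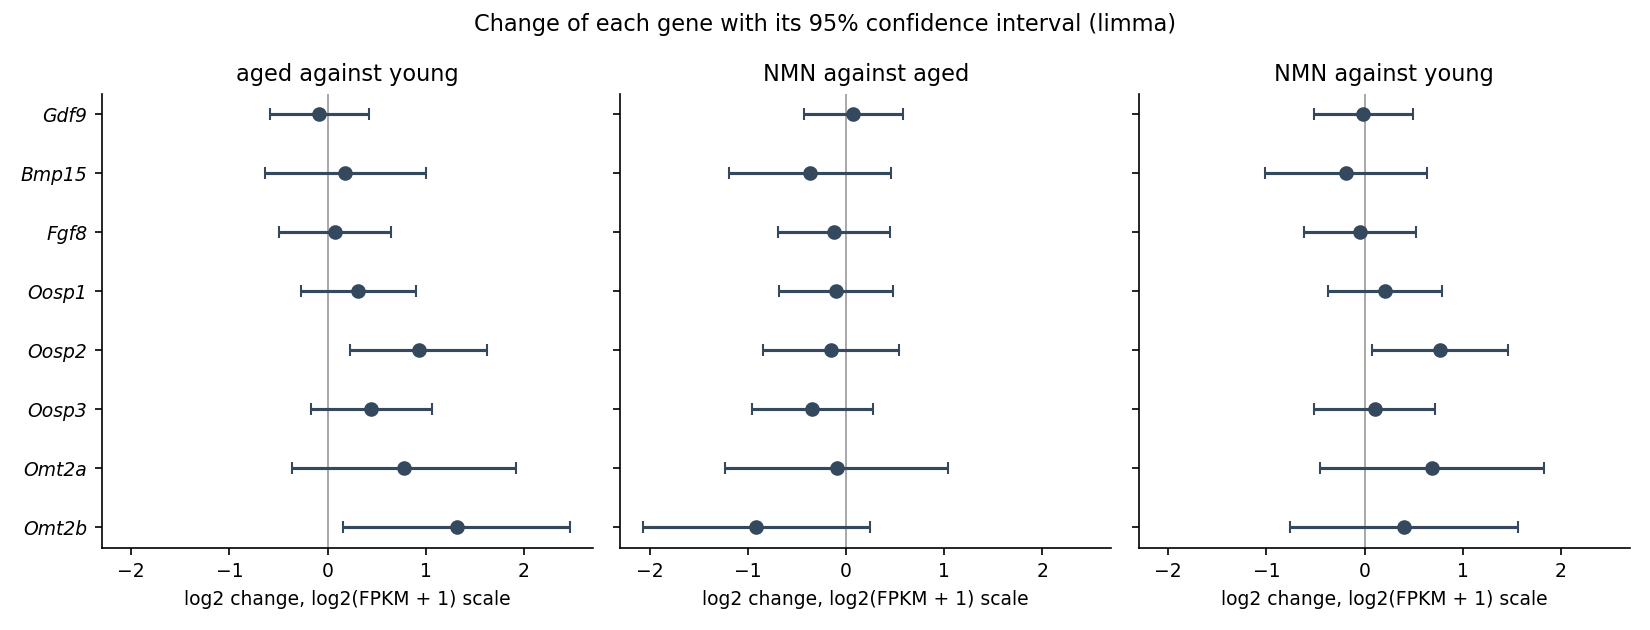
Change of each gene (x axis, log2 scale of FPKM + 1) in the 3 comparisons, as points with 95% confidence intervals from limma. The intervals of Oosp2 and Omt2b for aged over young and of Oosp2 for NMN over young lie above 0 before adjustment over all genes, and no gene passed after it.

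For 7 of the 8 genes most of the variance lay between libraries of the same group. The SD within groups on the log2 scale was 0.81 for Omt2b, 0.79 for Omt2a, 0.55 for Bmp15 and 0.44 for Oosp2, larger than in 98.0%, 97.8%, 89.8% and 78.8% of tested genes, whose median was 0.30. It was 0.38 for Oosp3, 0.36 for Oosp1, 0.33 for Fgf8 and 0.29 for Gdf9. The share of a gene's variance over the 9 libraries that lay between groups was 55.9% for Oosp2 and 41.2% for Omt2b. For the other 6 it was 2.54 to 27.4%, below the median of 30.9% over all tested genes.

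This variation was shared. In each group the library with the least Bmp15 also had the least Gdf9 and the most Oosp1, Oosp2, Oosp3, Omt2a and Omt2b, and it was NMN replicate 1, aged replicate 2 and young replicate 1. Within such a trio the highest Oosp1 value was 1.69 to 1.75 times the lowest, for Omt2b it was 2.53 to 3.53 times, and for Bmp15 1.67 to 2.27 times. Fgf8 followed this pattern in aged replicate 2 and young replicate 1, whereas NMN replicate 1 had the lowest Fgf8 of its group. NMN replicate 1, aged replicate 2 and young replicate 1 also had the lowest library quality weights, at 0.5883, 0.2065 and 0.6077. The other libraries had weights of 0.7626 to 2.25. Whether the shared variation remains with these weights was not tested.

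Over the 9 libraries, Oosp3 and Omt2b were the most alike of the 28 pairs (Pearson's r = 0.948, exact permutation p = 0.000435, adjusted over 28 pairs 0.00644; Spearman's rho = 0.967, p = 0.000165, adjusted 0.00463). The r was 0.841 without the 2 libraries farthest from the median of Oosp3, 0.919 without aged replicate 2, and 0.939 for deviations from the group means. Oosp1 and Oosp3, neighbours on chromosome 19, had r = 0.931 (exact permutation p = 0.00046, adjusted 0.00644), rho = 0.883 (p = 0.00308, adjusted 0.0287) and r = 0.943 without the 2 farthest libraries. All 10 pairs among the Oosp and Omt2 genes were positive, with r from 0.714 to 0.948 and rho from 0.650 to 0.967; 8 passed an adjusted p of 0.05 by r and 5 by rho. Without the 2 libraries farthest from the median of a pair's first gene these 10 lay between 0.490 and 0.943. They lay between 0.614 and 0.930 without aged replicate 2. With each library's trend over transcript length removed they lay between 0.604 and 0.904.

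Gdf9 and Bmp15 varied together over the libraries, with r = 0.832 (exact permutation p = 0.00146, adjusted 0.0114), rho = 0.717 (p = 0.0369, adjusted 0.103) and r = 0.77 without the 2 farthest libraries. Within groups r was 0.932, and without aged replicate 2 it was 0.871. All 10 pairs of Gdf9 or Bmp15 with an Oosp or Omt2 gene were negative, r from -0.747 to -0.384. Of these, Gdf9 with Oosp1 and Gdf9 with Oosp3 passed by r (exact permutation, adjusted p = 0.0469 and 0.0479) and 0 of 10 by rho. Without the 2 libraries farthest from the median of a pair's first gene, the 10 values lay between -0.393 and 0.126, with 5 above 0. Leaving out the extremes of a gene narrows its range, which by itself can bring r nearer 0. Whether the negative relation rests on those libraries therefore cannot be told from this. Without aged replicate 2 alone all 10 remained negative, between -0.719 and -0.239, and with the length trend removed they lay between -0.768 and -0.234. Within groups they lay between -0.896 and -0.650. Fgf8 had no pair that passed, with r from -0.530 to 0.593.

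**Figure D3:**
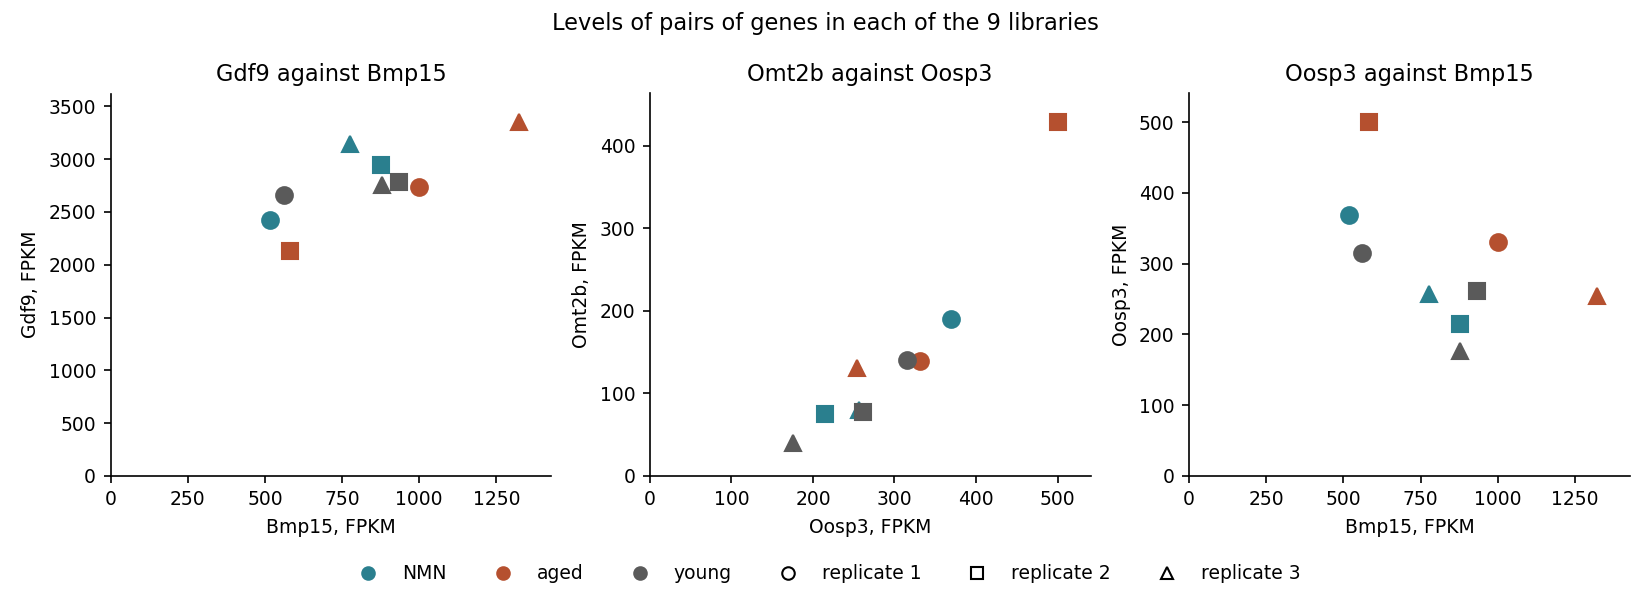
Levels in FPKM of Gdf9 against Bmp15, Omt2b against Oosp3 and Oosp3 against Bmp15, with 1 point per library, coloured by group and shaped by replicate number. Omt2b climbs with Oosp3 up to aged replicate 2 at 500.4 and 429 FPKM, and the 3 libraries with the least Bmp15 (517 to 582 FPKM) have Oosp3 at 315 to 500.4 FPKM. Aged replicate 1 lies in that Oosp3 range too, at 331 FPKM, with Bmp15 at 1000.2 FPKM.

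**Figure D4:**
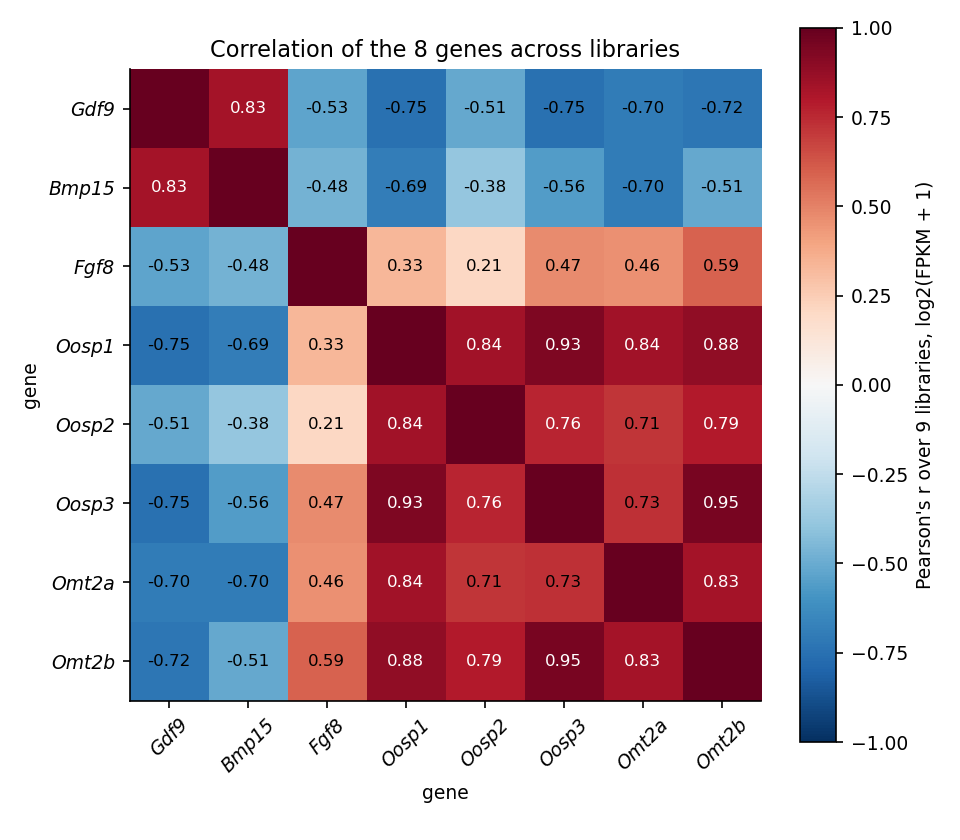
Pearson's r of every pair of the 8 genes over the 9 libraries, on scaled log2(FPKM + 1) values, from -1 (blue) to 1 (red). The Oosp and Omt2 genes form a block of values from 0.71 to 0.95, and their values with Gdf9 and Bmp15 are all negative.

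High correlation was also common elsewhere: |r| was at least 0.7 for 57.1% of the 28 pairs, for 19.7% of pairs among 3285 tested genes with a mean of at least 10 FPKM, and for 12.2% of pairs among all 9168. Other measures of the libraries moved with these genes. The sum of the 17 other oocyte markers was 32333, 24334 and 26543 FPKM in NMN, 27411, 34552 and 26145 FPKM in aged and 28962, 23193 and 22167 FPKM in young libraries. It was highest in each group in the library that was highest for the Oosp and Omt2 genes. Bcl2l10, H1foo and Btg4 made up most of it, with 15720, 8888 and 3999 FPKM in NMN replicate 1. The markers did not move as a whole. Nlrp14, Nlrp5, Padi6, Kit and Ddx4 were each lowest of their group in NMN replicate 1, aged replicate 2 and young replicate 1. Short transcripts moved as well. The median deviation of 1023 genes under 1000 nt, minus that of 4732 genes over 3000 nt, was 0.19, -0.30 and -0.05 in NMN, 0.10, 0.39 and 0.05 in aged and -0.01, -0.04 and -0.24 in young libraries on the log2 scale. The longest annotated transcripts are of 677 to 972 nt for the Oosp genes and 1044 and 1167 nt for Omt2b and Omt2a. They are of 1168 nt for Fgf8, 1793 nt for Gdf9 and 3060 nt for Bmp15. Beyond the length-corrected values given here, the part of these measures in the shared variation was not tested.

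Among 2960 other tested genes that had at least 10 FPKM on average and a symbol that was not a predicted one, those most like a member over the 9 libraries, by Pearson's r and as a description, were Tfdp1 (0.978) for Bmp15 and Gnpda2 (0.878) for Fgf8. For the Oosp genes they were Rgs17 (0.981) for Oosp1, Sft2d1 (0.974) for Oosp2 and Cks1b (0.986) for Oosp3, a cell cycle kinase subunit that had 94.9 to 259 FPKM. Rnf126 (0.987) was most like Omt2a and Ssu72 (0.989) most like Omt2b. Npm2, next but one for Oosp3 (0.966), is an oocyte histone chaperone and had 503 to 1271 FPKM. Libraries, depth and the aged replicate 2 values are common to all these points.

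Genes of the pathways that these factors use did not pass the test in the oocytes either. Over all tested genes, 2.18% were called for aged over young, 0.218% for NMN over aged and 0.0764% for NMN over young. For lists of this size 0 calls is thus near the background and does not show that levels were unchanged. Their levels in the granulosa and cumulus cells, on which the factors act, were not measured. Of 15 listed receptors of the TGF-beta superfamily 8 were tested, with 0 calls in either direction in each of the 3 comparisons (limma). Acvr1, a type I receptor for BMPs, came nearest, at 2.10 ± 0.12 in aged and 4.19 ± 0.32 FPKM in young oocytes (SD, n = 3; log2 change -0.79, limma adjusted p = 0.0711). Bmpr1b and Bmpr2, which bind BMP15, were at 34.2 to 46.0 and 11.4 to 21.3 FPKM in the 9 libraries. Of 18 SMADs and partners 13 were tested with 0 calls. Smad3, which carries TGF-beta and GDF9 signals, was at 47.6 ± 5.93 in NMN and 29.7 ± 9.46 FPKM in aged oocytes (limma adjusted p = 0.367), and Id3, a target of BMP signals, at 7.87 ± 1.55 in NMN and 4.14 ± 3.04 FPKM in aged oocytes (adjusted p = 0.317). In both, aged replicate 2 was the highest aged library, with Smad3 at 24.9, 40.6 and 23.6 FPKM and Id3 at 2.19, 7.65 and 2.58 FPKM in aged replicates 1, 2 and 3.

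Of 29 ligands and secreted binders 4 were tested, of 8 proprotein convertases 4 and of 22 FGF pathway genes 10, all with 0 calls in the 3 comparisons. The other oocyte ligand of the BMP family, Bmp6, was at 4.48 ± 0.59 in NMN, 3.40 ± 0.29 in aged and 4.38 ± 1.09 FPKM in young oocytes. Furin, an enzyme that cuts growth factor precursors, was at 7.63 ± 1.97 in NMN, 5.69 ± 2.37 in aged and 5.71 ± 1.42 FPKM in young oocytes. Fgf1 was at 2.42 ± 0.20 in aged and 4.25 ± 1.42 FPKM in young oocytes (limma adjusted p = 0.235). Of 16 other genes of oocyte and cumulus signalling 6 were tested with 0 calls. Rspo2, a secreted enhancer of Wnt signals made by the oocyte, was the most abundant of them, at 242 ± 35.1 in NMN, 215 ± 10.7 in aged and 201 ± 17.8 FPKM in young oocytes.

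Of 12 listed oocyte transcription factors and maternal regulators 9 were tested with 0 calls. Nobox, a homeobox regulator of oocyte genes that include Gdf9, was at 41.5 ± 4.99 in aged and 30.6 ± 4.66 FPKM in young oocytes (limma adjusted p = 0.311). Gata4 was at 20.8 ± 4.83 in NMN and 9.41 ± 2.80 FPKM in aged oocytes (adjusted p = 0.205). Of the 17 oocyte markers outside the 8 genes, 1 rose in aged over young, the egg coat gene Zp3, at 259 ± 82.8 in aged and 114 ± 11.3 FPKM in young oocytes (limma adjusted p = 0.041). Their median change was 0.43 for aged over young and -0.43 for NMN over aged, beside -0.05 and 0.02 over all tested genes, and both comparisons share the aged libraries.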

How the data were processed

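Messenger RNA of 9 oocyte libraries was measured by Smart-seq2, in which oligo(dT)-primed full-length cDNA is amplified, with DNBseq libraries, per the labels' protocols. The authors deposited 1 table of FPKM, although its name calls it raw counts. The submitters' processing notes name Bowtie2 2.2.5, RSEM and the mm9 build, without their roles; annotation and filters are not given in the sources used here. Gene names, transcript lengths and gene order came from GENCODE M21, a later build, and 22487 identifiers matched. All 9 columns were assigned.

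Depth came from the steps between low values of 2659 genes with 1 transcript of over 1500 nt; 96.6 to 97.6% of values below 20 reads fell within 0.02 of a whole read. The floor of 3 reads covers counting error only. FPKM were divided by trimmed-mean factors (30% of ratios and 5% of levels trimmed). The 9168 genes that reached 1 FPKM in 3 or more libraries were tested, and limma 3.58.1 (R 4.3.3) was fitted to log2(FPKM + 1) of all 9 libraries with a variance trend and robust moderation. That scale understates changes of low genes. Benjamini-Hochberg adjustment covered all tested genes. The steps were tested on simulated data. FPKM in the text are as deposited, and correlations use scaled values.

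The genes, lists and tests were chosen with earlier results of these data known. Named list genes were those called and up to 3 with the smallest p per comparison, of which a part is printed; Bmpr1b and Bmpr2 were added after their values were seen. For likeness, the 3 genes with the highest r were kept. The gene most like Gdf9 is not reported here. The deviations of same-numbered NMN and young libraries from their group means were positively correlated, though weakly for replicates 2 and 3 (r of 0.497, 0.119 and 0.142). The replicate number was therefore also fitted as a block. For aged and young (-0.339, -0.267 and 0.314) and NMN and aged (-0.372, -0.359 and 0.199), r was negative for replicates 1 and 2 and positive for replicate 3.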

Additional observations from a re-analysis of the deposited data

How the results depend on the processing

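None of the 8 genes was called in any comparison under any of the 18 alternatives run (17 for Fgf8, which a minimum of 10 FPKM left out). Their lowest limma adjusted p was 0.0687, for Oosp2 in aged over young with the replicate block. The labels tie the replicate numbers to no animal or day, and deviations of same-numbered aged and young libraries had no common sign. The number of all genes called moved. For aged over young it was 31 with no low-value filter, 97 at a minimum of 10 FPKM, 906 with quality weights, 73 with the replicate block, 132 with only the 6 libraries compared, and 20 to 210 without 1 library. For NMN over aged it was 9, 3 and 163 under the first 3 of these, 6 with 6 libraries, and 5 to 26 without 1 library. For NMN over young it was 3 with values as deposited, 0 with no filter, 1 at 10 FPKM, 73 with quality weights, 0 with the replicate block, 17 with 6 libraries, and 1 to 14 without 1 library. The cause was not tested.

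Small member changes turned sign. With values as deposited, Gdf9 and Fgf8 were at 0.0466 and 0.00741 for NMN over young. With quality weights, Gdf9 was at 0.121 for aged over young, -0.0892 for NMN over aged and 0.0323 for NMN over young, and Fgf8 at 0.0457 for NMN over aged and 0.0648 for NMN over young. With each library's length trend removed, a setting chosen after seeing the data, Fgf8 was at -0.0525 for aged over young, and Oosp1 and Omt2a at 0.0249 and 0.015 for NMN over aged. Without 1 library, the aged over young ranges were -0.27 to 0.16 for Gdf9, -0.11 to 0.58 for Bmp15 and -0.17 to 0.31 for Fgf8. The NMN over aged ranges were -0.17 to 0.26 for Gdf9, -0.36 to 0.12 for Fgf8, -0.34 to 0.0319 for Oosp1, -0.40 to 0.11 for Oosp2 and -0.64 to 0.28 for Omt2a. The NMN over young ranges were -0.0786 to 0.12 for Gdf9, -0.44 to 0.061 for Bmp15, -0.20 to 0.0926 for Fgf8, -0.0235 to 0.39 for Oosp1, -0.12 to 0.27 for Oosp3 and -0.0407 to 0.82 for Omt2b. For aged over young, Oosp1, Oosp2, Oosp3, Omt2a and Omt2b kept a positive sign throughout, with Oosp2 from 0.73 to 1.18 and Omt2b from 0.83 to 1.73.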

Other observations

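In each same-numbered pair of libraries Oosp2 was higher in NMN than in young, with 28.1, 21.0 and 14.0 FPKM in NMN and 15.4, 10.7 and 7.97 FPKM in young replicates 1, 2 and 3. With the replicate number as a block the NMN over young change was 0.77 with a limma adjusted p = 0.341 over all genes, and without it the adjusted p was 0.556. Oosp1 and Omt2a were also higher in NMN in 3 of 3 pairs, Bmp15 was lower in NMN in 3 of 3, and the other 4 genes differed in direction between pairs, both as deposited and after scaling. The labels tie these numbers to no animal or day. How many of all tested genes had 1 direction in 3 of 3 pairs was not counted, so nothing is concluded from these counts.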
